A study of Arabidopsis thaliana with 3 samples.

Results

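N6-methyladenine (6mA) pull-down signal on Arabidopsis thaliana chromosomes 1, 2, 3 and 4, outside the 45S rRNA gene copies, was described summit by summit. A summit is the position of highest fragment coverage that the peak caller reports, and a peak can hold several. Every summit on these chromosomes was taken, except those below position 20000 on chromosome 2 and those in a 50-kb window of chromosome 3, which hold the rRNA gene copies. This left 225 of the 673 summits in both lists, 165 from replicate 2 and 60 from replicate 1. The nearest summits at the edges of that rule were from replicate 1. On chromosome 2 they were 3356850 inside (fold 1.32) and 10046 outside (fold 1.46), and on chromosome 3 they were 13709884 inside (fold 1.13) and 14191934 outside (fold 1.34).

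The DNA came from whole 9-day-old seedlings of the Col-0 ecotype, grown with 16 h of light. It was sheared to about 300 bp and pulled down with an antibody raised against N6-methyladenosine in RNA and DNA. There were 2 immunoprecipitated libraries (replicates 1 and 2) and 1 input library of the same genotype, age and growth. No treatment, mutant or other genotype was compared, and nothing in the labels ties each replicate to its own culture, which leaves technical spread possible. Replicate 2 held 995366 of 1971564 fragments after removal of duplicates (50% duplicates). Replicate 1 held 28141317 of 36775906 (23% duplicates). Mean coverages were 1.77 fragments in replicate 2 and 42.3 in replicate 1. Both lists were made against the same input of 61231606 fragments. The fold is the authors' value at a summit, its pileup (fragments covering it) over the local input background. With 2 libraries that share 1 input, the values below are descriptions of each library and carry no test.

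In eukaryotic DNA 6mA is a rare modification of adenine, better known from bacteria. Antibody methods read it as extra coverage over input, so a place that the input itself covers deeply needs both values to be read. Arabidopsis centromeres consist of long satellite arrays flanked by gene-poor DNA rich in transposons and their remains. Most of these arrays are missing from the TAIR10 assembly, in which all positions here are given. The position of the summits relative to the centromeres was not tested. For each summit the input background was therefore derived from pileup and fold and is given in multiples of the library's mean coverage. How far copy number in the genome contributes to the signal was not tested.

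Summits under 100 kb apart were joined into 12 loci, of which 5 held summits of both replicates, 4 of replicate 2 alone and 3 of replicate 1 alone. The shared loci held 159 of the 165 summits of replicate 2 and 57 of the 60 of replicate 1. Chromosome 4 had 108 summits in replicate 2 and 23 in replicate 1, chromosome 2 had 33 and 21, chromosome 1 had 13 and 9, and chromosome 3 had 11 and 7. Joined under 5 kb, a distance chosen after the values were seen, the summits formed 23 stretches. The longest, on chromosome 4, spanned 22.1 kb. Summits of both replicates were present in 8 of the 23 stretches.

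On chromosome 1 most summits lay in 1 gene. A stretch of 4.1 kb (15081949 to 15086043) carried 10 of the 13 summits of replicate 2, all in a single peak, and 8 of the 9 of replicate 1, in 4 peaks. All 18 lay inside the protein-coding gene AT1G40104, which was covered in full by the replicate 2 peak and over 58.7% of its 3.94 kb by replicate 1 peaks. In replicate 2 the folds along the gene were 14.8, 17.6, 10.9, 11.6, 7.17, 17.3, 14.6, 11.6, 14.5 and 11.2. In replicate 1 they were 1.36, 1.24, 1.43, 1.17, 1.66, 1.41, 1.45 and 1.35. The lowest replicate 2 fold in the gene was therefore above the highest of replicate 1. The highest summit differed, at 15082828 in replicate 2 (17.6) and 15084445 in replicate 1 (1.66), where replicate 2 had 17.3 at 15084450. Background over mean coverage was 66.6 to 113 in replicate 2 and 69.2 to 114 in replicate 1.

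The other chromosome 1 summits stood on lower backgrounds than those in AT1G40104, at 1.00 to 1.18 times mean coverage in replicate 2 and 3.88 in replicate 1. The lowest background of replicate 2, 1.0039, was identical at 7025155 and 14508777, and at 3655860 on chromosome 4. Whether this value is a lower limit of the caller, and not the input at those sites, was not tested. Replicate 2 had 1 summit at 14508777 (fold 4.32) and 1 at 14544563 (fold 3.56), whose peak covered 37.8% of the protein-coding gene AT1G38790. Their pileups were 11 fragments (exact 95% Poisson interval 5.49 to 19.7) and 10 fragments (4.80 to 18.4). Replicate 1 had 1 summit at 14721372 (fold 1.32), at a pileup of 217 and a background of 3.88. The replicate 2 summit at 7025155 (fold 3.60, pileup 9, interval 4.12 to 17.1) had 14 protein-coding genes and 0 pseudogenes within 20 kb. These intervals cover counting error only.

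Most chromosome 2 summits lay in 2 neighbouring genes, with 21 of 33 in replicate 2 and 16 of 21 in replicate 1. A 12.7-kb stretch (3614914 to 3627572) held 23 summits of replicate 2 and 18 of replicate 1. The protein-coding gene AT2G08986, 8403 bp long, held 16 summits of replicate 2 (folds 3.77 to 29.0, median 23.4) and 14 of replicate 1 (1.07 to 2.01, median 1.66). Peaks covered 97.1% of it in replicate 2 and 45.3% in replicate 1. Its neighbour AT2G07981, also protein-coding and 2.73 kb long, held 5 summits of replicate 2 (7.93 to 21.7) and 2 of replicate 1 (1.33 and 1.53). Coverage by peaks there was 81.6% in replicate 2 and 27.2% in replicate 1. Neither gene has a name in the reference table beyond its locus tag.

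The highest folds on chromosome 2 lay at the end of that stretch, past AT2G08986. They were 32.9 at 3627317 in replicate 2 and 2.10 at 3627314 in replicate 1. Pileup was highest a little before it, with 16890 fragments at 3626248 in replicate 2 and 28129 at 3626245 in replicate 1. Relative to mean coverage these were 9545 in replicate 2 and 665 in replicate 1, on backgrounds of 348 in replicate 2 and 359 in replicate 1.

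A second stretch of 2.17 kb (3605681 to 3607850) touched no annotated gene, the nearest being the pseudogene AT2G07880 at 0.632 kb. Replicate 2 had 5 summits there (folds 19.1, 13.8, 14.8, 21.3 and 13.8), and replicate 1 had 1 (1.44). Farther on, replicate 2 alone had 2 summits in a peak of 572 bp at 3664154 to 3664725 (7.44 and 7.23) and 1 at 3718239 (10.9). Backgrounds at these 3 were 1.94 to 18.5.

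Replicate 1 alone had a summit at 3356850 in the pseudogene AT2G07697 (fold 1.32, background 17.1) and a summit at 3459027 in the protein-coding gene AT2G07656 (1.22, background 18.02). The peak in AT2G07656 also reached the pseudogene AT2G07729. Unlike most stretches, each of these had 29 annotated genes within 20 kb, with 14 protein-coding genes around 3356850 and 17 around 3459027. As background, a large insertion of mitochondrial DNA is known from the pericentromere of chromosome 2. Whether these summits lie in it was not tested. At the other end of the chromosome, replicate 2 had a peak of 530 bp (19697755 to 19698284) with summits of fold 2.32 at 19697851 and 6.56 at 19698154. It lay 0.934 kb past AT2G48160 (HUA2 LIKE 2), and 0 annotated genes followed it on chromosome 2.

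Chromosome 3 had no summit in an annotated gene in either replicate. A 5.67-kb stretch (13586922 to 13592590) held 10 of its 11 summits in replicate 2 and 6 of 7 in replicate 1. The folds in replicate 2 were 3.44, 18.4, 7.99, 16.0, 15.04, 21.4, 20.1, 25.4, 31.2 and 27.8 in order of position. Those in replicate 1 were 1.33, 1.74, 1.53, 1.86, 2.38 and 1.92 from 13589371 on. In both replicates the fold was low at the start and highest at the last summit but 1, at 13592014 in replicate 2 and 13592009 in replicate 1. The input was deepest here of the 4 chromosomes, with backgrounds up to 490 in replicate 2 and 506 in replicate 1. All 10 annotated genes within 20 kb were pseudogenes, the nearest being AT3G33055 at 2.95 kb. The other summits were 1 of replicate 2 at 13641922 (4.23, pileup 12, interval 6.20 to 20.96) and 1 of replicate 1 at 13709884 (1.13).

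**Figure D1:**
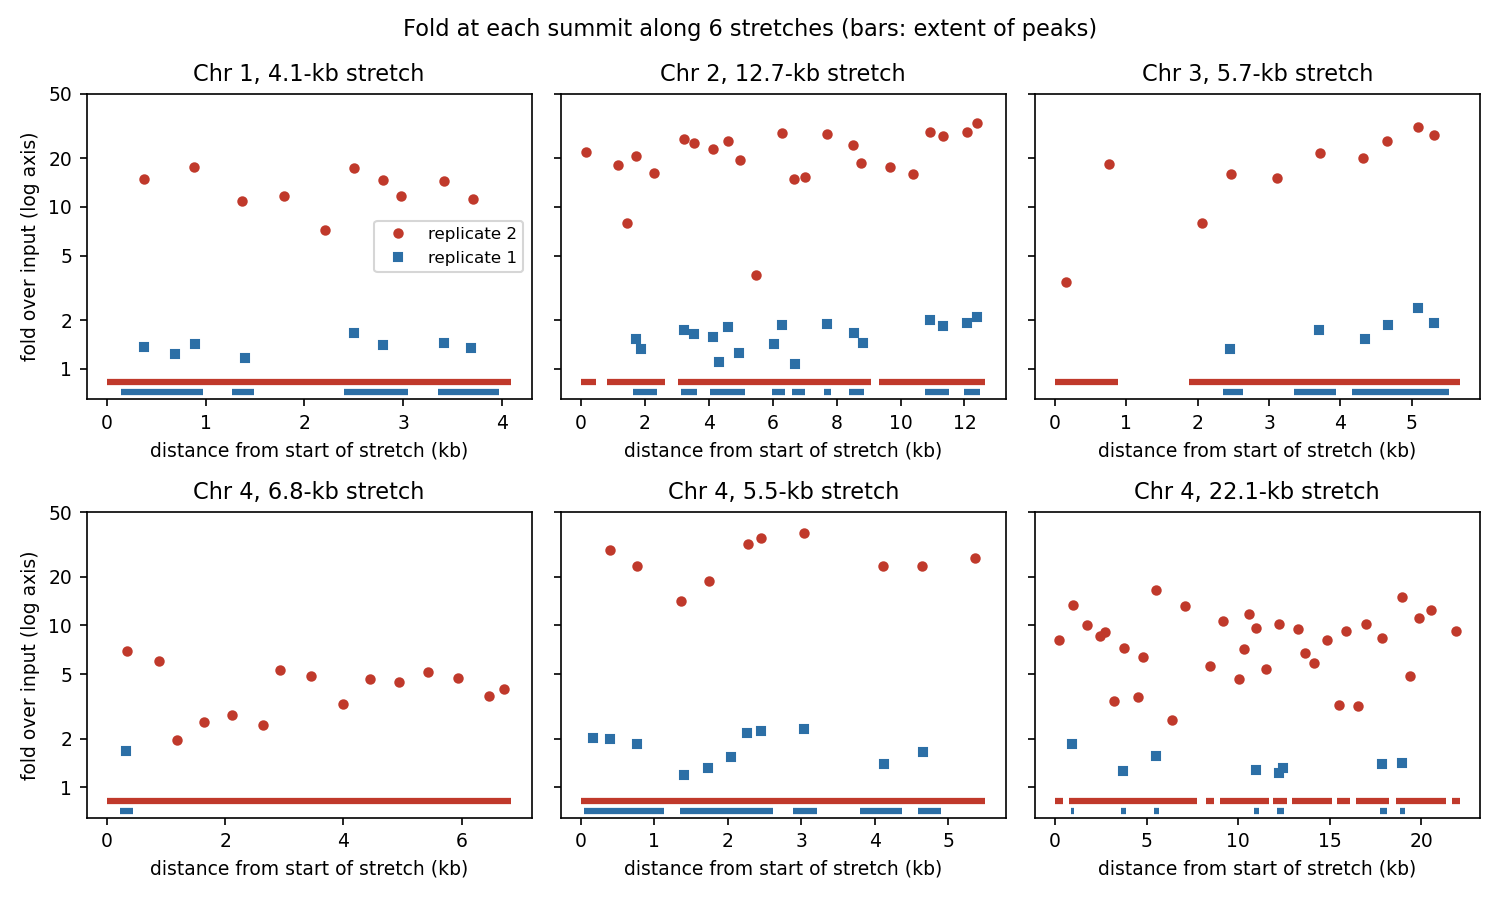
Fold over input (log axis) at each summit against distance from the start of the stretch in kb, for 6 stretches, with replicate 2 as red circles and replicate 1 as blue squares; bars at the foot show the extent of each peak. Replicate 2 folds lie above those of replicate 1 in each panel, from 37.3 at the top of the 5.5-kb stretch of chromosome 4 down to 1.98 in the 6.8-kb stretch, where replicate 1 has 1 summit at 1.67.

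Chromosome 4 had the widest range of folds in replicate 2 (1.82 to 37.3), against 1.19 to 2.29 in replicate 1. The 5.51-kb stretch at 3950517 to 3956026 was 1 peak with 10 summits in replicate 2 and 5 peaks with 11 summits in replicate 1. Folds in replicate 2 were 29.2, 23.3, 14.04, 18.8, 31.9, 34.6, 37.3, 23.1, 23.1 and 25.9. Folds in replicate 1 were 2.01, 1.99, 1.86, 1.19, 1.32, 1.55, 2.18, 2.24, 2.29, 1.40 and 1.66. Fold was lowest at 3951879 in replicate 2 and 3951917 in replicate 1, and highest at 3953555 in replicate 2 and 3953553 in replicate 1. The summit 37.3 was the highest of the 165 in replicate 2, and 2.29 was the second highest of the 60 in replicate 1, after 2.38 on chromosome 3.

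Next came a 22.1-kb stretch (3965590 to 3987668) and then a 13.7-kb stretch (3998018 to 4011694). The 22.1-kb stretch held 34 summits of replicate 2 in 10 peaks and 8 of replicate 1 in 7 peaks. The 13.7-kb stretch held 27 summits of replicate 2 in 3 peaks and 3 of replicate 1 in 3 peaks. Folds in replicate 2 were 2.61 to 16.6 (median 8.45) in the first and 1.82 to 11.7 (median 8.24) in the second. Those of replicate 1 were 1.23 to 1.86 (median 1.36) and 1.26 to 1.44 (median 1.29). Backgrounds were lower than in the 5.51-kb stretch, with medians of 30.9 and 33.4 in replicate 2, against 280 there. No summit of these 3 stretches lay in an annotated gene. Peaks only touched the ends of the pseudogenes AT4G06700 (86 bp in replicate 2, 50 bp in replicate 1) and AT4G06708 (47 bp in replicate 2). All 9 annotated genes within 20 kb of the 22.1-kb stretch, and all 9 for the 13.7-kb stretch, were pseudogenes. These windows overlap, so a gene can be counted in both.

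A single replicate 2 peak of 6.84 kb at 3054362 to 3061205 held 15 summits, against 1 summit in a 220-bp peak of replicate 1. The first replicate 2 summit, at 3054697, had fold 6.93, and the replicate 1 summit at 3054690 had 1.67. The second replicate 2 summit had 6.03. The next 4 had 1.98 to 2.79 and the last 9 had 3.25 to 5.30. Of the last 9, 6 lay inside annotated genes. The miscellaneous RNA gene AT4G05175 held 1 summit (4.87), AT4G05185 held 3 (3.25 to 4.66) and AT4G05195 held 1 (4.76), and the peak covered each of these in full. The pseudogene AT4G06477 held 1 (4.04). Overlap of this peak with tandem repeats, such as satellite or 5S rRNA gene arrays, or with assembly gaps was not tested, here or for the other stretches.

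The 14 distances between these 15 summits, in order, were 552, 306, 442, 483, 515, 301, 519, 547, 445, 500, 479, 514, 520 and 253 bp. They averaged 455 ± 97.5 bp (SD). The 9 distances in the AT1G40104 peak ranged from 182 to 506 bp and averaged 370 ± 108 bp. The 4 in the 2.17-kb peak of chromosome 2 ranged from 317 to 557 bp (SD 106). The spread was alike in size in these peaks. It was larger in the 5.51-kb replicate 2 peak of chromosome 4, where 9 distances ranged from 175 to 1081 bp (SD 253).

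A group of summits on low backgrounds lay before that peak, in replicate 2 alone. Over 43.9 kb (2920745 to 2964640) there were 21 summits in 17 peaks, 3 of them with more than 1 summit. Folds were 2.73 to 12.5 (median 5.33), with the highest at 2921723. Pileups were only 13 to 42 fragments, on backgrounds of 1.22 to 3.37 times mean coverage. Replicate 1 listed 0 summits over this span. The only annotated gene under these peaks was the protein-coding gene AT4G05612, which held 1 summit (4.24) and was covered over 5.18% of its length. The last replicate 2 summit of the chromosome outside these groups, at 3655860, had fold 5.04 at a pileup of 13 (interval 6.92 to 22.2), in a peak that reached 80 bp into the transcribed pseudogene AT4G06597.

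Peaks with several summits were set side by side by chromosome. In replicate 2, 23 of 48 peaks (47.9%, exact Clopper-Pearson 95% interval 33.3 to 62.8) had 2 or more summits, and they held 140 of the 165 summits. In replicate 1 it was 14 of 37 peaks (37.8%, 22.5 to 55.2), with 37 of the 60 summits. The intervals cover counting error only. Many peaks are neighbours in the same stretch and are not independent, so the intervals do not compare the 2 libraries. By chromosome, replicate 2 had 1 of 4 such peaks on chromosome 1, 6 of 8 on chromosome 2, 2 of 3 on chromosome 3 and 14 of 33 on chromosome 4. Replicate 1 had 3 of 5, 7 of 12, 1 of 4 and 3 of 16 in the same order. The most summits in 1 peak were 16 in replicate 2, in the 7977-bp peak at 4003718 to 4011694, and 5 in replicate 1, in the 1265-bp peak at 3951867 to 3953131, both on chromosome 4.

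Wider peaks held more summits, which follows in part from the definition, since the summits of a peak must fit inside it. Peaks of replicate 2 were 241 to 7977 bp wide (median 569) and those of replicate 1 were 206 to 1362 bp wide (median 384). The caller sets the shortest peak it reports at the library's fragment length, per the file headers, which was 240 bp in replicate 2 and 203 bp in replicate 1. By chromosome the median width in replicate 2 was 633 bp on chromosome 1, 1196 bp on chromosome 2, 882 bp on chromosome 3 and 480 bp on chromosome 4. In replicate 1 it was 621, 448, 439 and 310 bp. Among peaks with several summits, 1 summit stood for a median of 456 bp of peak in replicate 2 and 277 bp in replicate 1. Peaks covered 78.4 kb in replicate 2, of which 52.4 kb lay on chromosome 4, and 17.9 kb in replicate 1, of which 6.77 kb lay there.

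**Figure D2:**
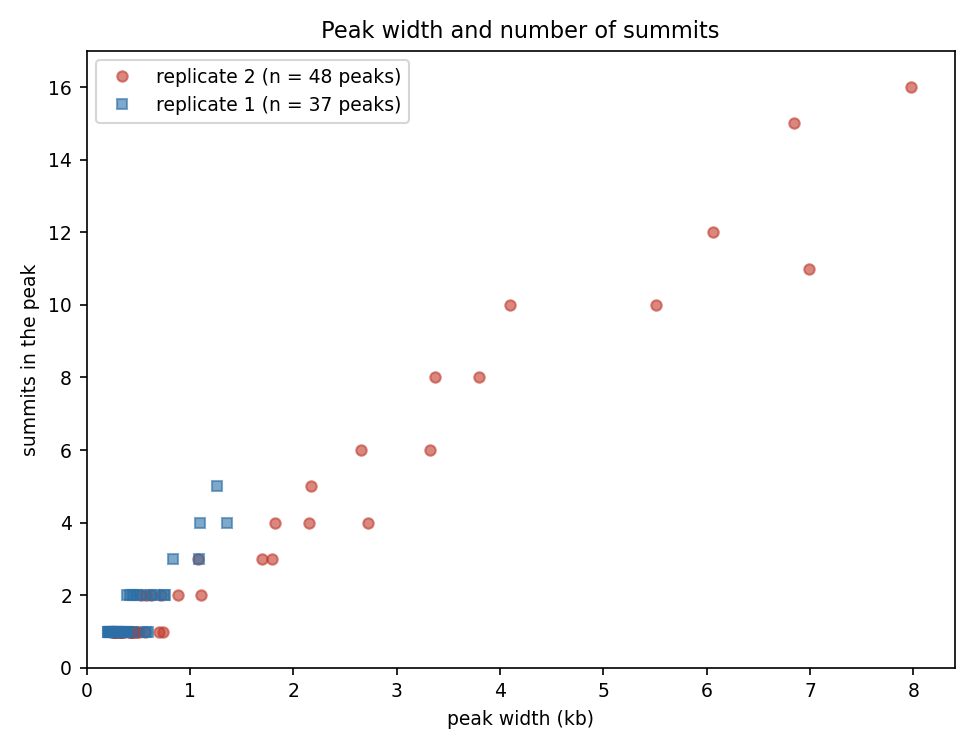
Number of summits in a peak against its width in kb, 1 point per peak, for 48 peaks of replicate 2 (red circles) and 37 of replicate 1 (blue squares). Points of both lists climb with width, up to 16 summits in 7977 bp in replicate 2 and 5 summits in 1265 bp in replicate 1.

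Narrow replicate 1 peaks sat inside wide replicate 2 peaks. Of the 37 peaks of replicate 1, 33 lay wholly within a replicate 2 peak, and 15 of the 48 peaks of replicate 2 held them. Since both lists share the input, this is given as geometry and not as a measure of agreement. The 15 were 736 to 7977 bp wide (median 3369) and 14 of them had several summits. The 33 without a replicate 1 peak were 241 to 2148 bp wide (median 436) and 9 had several. Replicate 1 peaks filled 3.21% to 64.8% of the 15. The share was 64.8% in the 5.51-kb peak of chromosome 4, 59.0% in the 3792-bp peak of chromosome 3, 57.1% in the AT1G40104 peak and 3.21% in the 6.84-kb peak of chromosome 4.

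Adjacent summits of a locus were a median of 527 bp apart in replicate 2 (156 distances) and 557 bp in replicate 1 (52 distances). Within a peak the medians were 483 bp in replicate 2 (quartiles 349 and 573, n = 117) and 286 bp in replicate 1 (quartiles 228 and 325, n = 23). By chromosome the replicate 2 medians within peaks were 419 bp on chromosome 1, 485 bp on chromosome 2, 516 bp on chromosome 3 and 486 bp on chromosome 4. Those of replicate 1 were 289, 286, 326 and 240 bp. Between peaks the medians were 1412 bp in replicate 2 and 1095 bp in replicate 1. Shortest distances were 141 bp in replicate 2 and 136 bp in replicate 1, below the fragment length of either library.

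**Figure D3:**
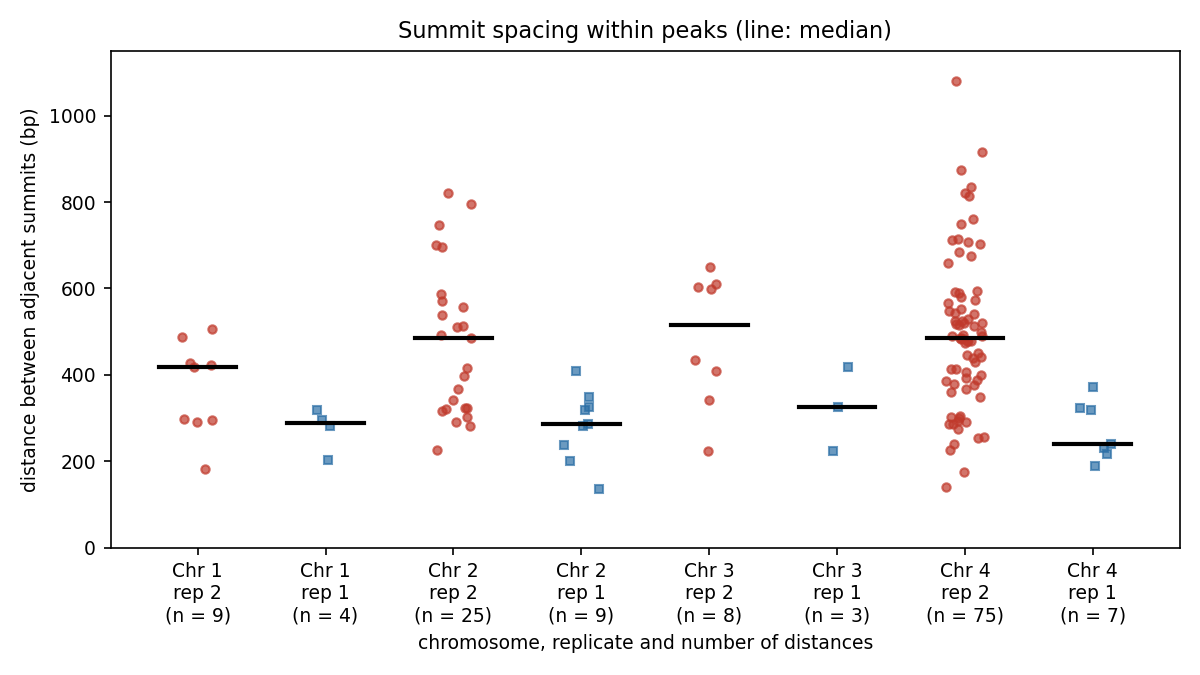
Distance in bp between adjacent summits of 1 peak, by chromosome and replicate, with a line at the median. Replicate 2 (red circles) spans 141 to 1081 bp and replicate 1 (blue squares) 136 to 418 bp, and the median of replicate 2 is higher on each chromosome.

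To set folds side by side, each replicate 1 summit was paired with the nearest replicate 2 summit within 50 bp. This gave 46 pairs, with 76.7% of the replicate 1 summits and 27.9% of the replicate 2 summits. Positions in a pair differed by a median of 6.5 bp and at most 38 bp. Fold was higher in replicate 2 at each pair, by a median of 13.4 times (range 4.15 to 16.5). Because both folds were computed over the same input, the implied backgrounds at a pair are close by construction (replicate 2 over replicate 1, median 0.993, range 0.947 to 1.05). Over mean coverage, the median pileup at the pairs was 3104 in replicate 2 and 230.0 in replicate 1. Folds at the pairs had medians of 20.4 in replicate 2 and 1.62 in replicate 1.

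The ratio varied with the stretch. It was 14.8 in the 12.7-kb stretch of chromosome 2 (median of 14 pairs, SD 0.627, range 13.6 to 15.6) and 14.6 in the 5.51-kb stretch of chromosome 4 (9 pairs, SD 1.57, range 11.8 to 16.5). In the chromosome 3 stretch it was 13.1 (6 pairs, SD 0.908, range 11.98 to 14.5) and in AT1G40104 it was 10.4 (7 pairs, SD 1.27, range 8.27 to 12.3). In the 22.1-kb stretch of chromosome 4 it was 7.92 (6 pairs, SD 1.89, range 6.00 to 10.7). In the 13.7-kb stretch it was 6.92 and 7.29 at 2 pairs, and in the 6.84-kb peak it was 4.15 at 1 pair. The 2.17-kb stretch of chromosome 2 also had 1 pair, with a ratio of 13.3. The 5.51-kb and 22.1-kb stretches of the same locus on chromosome 4 did not overlap in range, while the range in AT1G40104 overlapped both. This contrast was picked after the values were seen. Replicate 1 backgrounds at the pairs differed too, at 149 to 421 in the 5.51-kb stretch and 39.3 to 101 in the 22.1-kb stretch. Pairs of a stretch share their DNA and the input and are not replicates, so no test was made. Chromosome 5, with 180 summits in replicate 2 and 22 in replicate 1, gave ratios of 2.08 to 15.2 at 18 pairs (median 11.996).

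**Figure D4:**
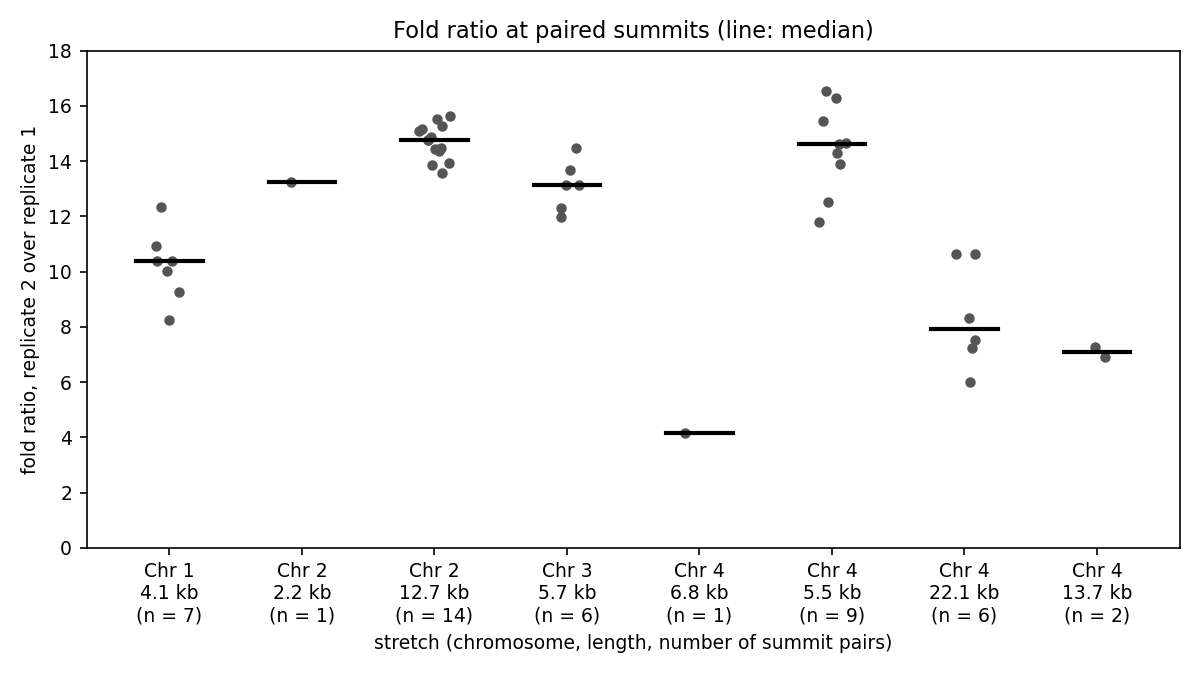
Ratio of fold in replicate 2 to fold in replicate 1 at the 46 paired summits, by stretch, labelled with chromosome, length and number of pairs; each point is 1 pair and the line is the median. Medians run from 14.8 in the 12.7-kb stretch of chromosome 2 to 4.15 in the 6.8-kb stretch of chromosome 4.

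The 119 summits of replicate 2 without a pair had lower folds (median 6.80, range 1.82 to 25.9) than the 46 with one (median 20.4, range 6.93 to 37.3). Their backgrounds were lower too, with a median of 31.7 for those without a pair and 148 for those with one. Of the 14 replicate 1 summits without a pair, 10 lay inside a replicate 2 peak, 64 to 251 bp from its nearest summit, and 4 lay outside any. The highest of the 14 was at 3950679 on chromosome 4 (2.01).

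Fold was also read against background, with the caution that fold is computed from it. In replicate 2 the median fold was 4.74 at the 10 summits under 2 times mean coverage, 5.21 at the 18 from 2 to 10, and 7.92 at the 51 from 10 to 50. It was 10.2 at the 45 from 50 to 100, 20.7 at the 27 from 100 to 200 and 27.6 at the 14 above 200. Ranges were wide, at 1.98 to 19.1 from 50 to 100 and 4.04 to 32.9 from 100 to 200. All 14 above 200 lay in the 12.7-kb stretch of chromosome 2, the 5.67-kb stretch of chromosome 3 and the 5.51-kb stretch of chromosome 4. Summits of a band are thus often neighbours and not independent points. In replicate 1 the median fold was 1.29 at 7 summits from 10 to 50, 1.42 at 12 from 50 to 100, 1.58 at 25 from 100 to 200 and 1.86 at 15 above 200. Replicate 1 had 1 summit on a background under 10 (14721372 on chromosome 1).

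**Figure D5:**
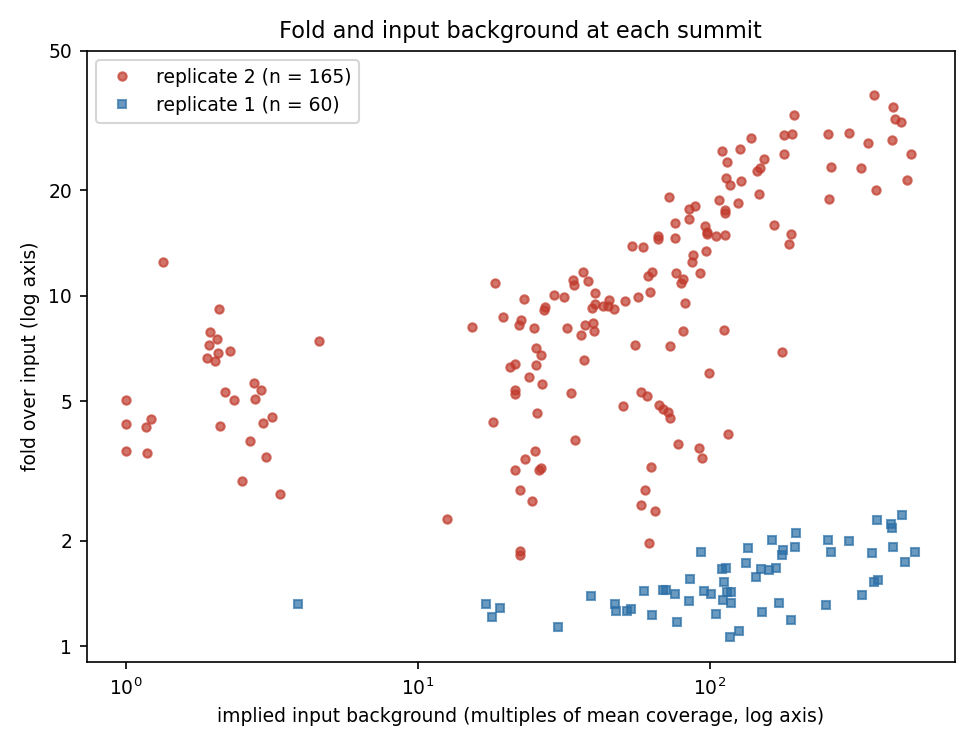
Fold over input against implied input background in multiples of mean coverage, both on log axes, for 165 summits of replicate 2 (red circles) and 60 of replicate 1 (blue squares). Replicate 2 lies between 1.82 and 37.3 and replicate 1 between 1.07 and 2.38, and the highest folds of both stand on backgrounds above 100.

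Annotated genes under these peaks were counted. The share of these chromosomes that genes cover was not computed, so whether the counts are low or high was not tested. Peaks of either replicate overlapped 15, of which 6 were protein-coding, 6 were pseudogenes and 3 were miscellaneous RNA genes. Replicate 2 peaks touched 12 of them and replicate 1 peaks touched 7. Inside genes lay 38 of the 165 summits of replicate 2 (23.03%) and 26 of the 60 of replicate 1 (43.3%). By chromosome, summits in genes were 10 of 13 in replicate 2 and 8 of 9 in replicate 1 on chromosome 1, and 21 of 33 and 18 of 21 on chromosome 2. They were 0 of 11 and 0 of 7 on chromosome 3, and 7 of 108 and 0 of 23 on chromosome 4. Of the 188 annotated genes within 20 kb of a stretch, 100 were pseudogenes (53.2%), against 13.2% of the 29479 on chromosomes 1 to 4. Stretches of 1 replicate alone were counted like shared ones. No windows of similar gene-poor DNA without summits were counted, so whether this share is particular to the stretches was not tested.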

How the data were processed

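Per the submitters' processing notes, Trim Galore trimmed the reads and TAIR10 was the genome. Which aligner was used is not given in the sources used here. MACS 2.2.6 called peaks and their summits for each library against the shared input, from read pairs, at a q cutoff of 0.05, a genome size of 135 Mb and at most 1 fragment per position, per the file headers. Deposited pileup is a signal, meaning coverage by fragments. Deposited fold enrichment is a ratio of that pileup to the caller's local background. The authors' lists also hold the caller's −log10 p-value and q-value.

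Background was computed here as (pileup + 1)/fold − 1, divided by the library's mean coverage (kept fragments times fragment length over genome size). Summits of both replicates within 50 bp were paired. Genes came from the RefSeq table of TAIR10.1, whose nuclear positions were taken to equal those of TAIR10, and an overlap of 1 bp counted. By rule, the text names each locus, the highest summit of each replicate in it, and each gene under a peak; other summits were named after their values were seen. Members and lists were chosen with earlier results of these data known. Python 3.11.15, pandas 2.3.3 and scipy 1.17.1 were used, and the scripts were tested on simulated data. Sequences were not analysed here.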

Additional observations from a re-analysis of the deposited data

How the results depend on the processing

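Recomputed values were held to 1 SD of the 2 replicates, the exact 95% interval or a factor of 1.5, whichever applied, and 4 went past it. Some others could not move, such as summit counts under another joining distance. With loci joined under 10 kb, the median spacing in replicate 1 was 520.5 bp, against 556.5 bp. Requiring peaks to share at least 50% of each other's length left 1 pair, on chromosome 4, with a fold ratio of 7.72. Counting peaks within 1 kb of a gene gave 24 genes in place of 15. Leaving out 1 replicate gave 7 to 12 genes (7 without replicate 2) and 9 loci either way. Joining stretches under 3 kb or 10 kb, both chosen after the data were seen, gave 24 and 20 of them, and the fold ratio as the median over stretches, also chosen then, was 11.8. No paired analysis was possible because both replicates share the same input library, and no result comes from a test. The fold ratio needs both replicates and has no value with 1 left out. Depth limits the low-background summits of replicate 2, where a pileup of 9 has an exact interval of 4.12 to 17.1.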
